A study of Mus musculus with 4 samples.

Results

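The circadian clock genes of mouse liver were examined as a group of 10 genes chosen by name: Arntl, Clock, Per1, Per2, Cry1, Cry2, Nr1d1, Nr1d2, Dbp and Rgs16. They are 10 of the 21938 protein-coding genes of the GENCODE vM21 annotation on GRCm38 (mm10), and the rule that names them uses no measured value. Accessibility was measured by scATAC-Seq, in which the Tn5 transposase cuts open chromatin of isolated nuclei and a droplet barcode marks the nucleus. The 4 libraries, 1 per time point, came from hepatocytes that collagenase perfusion freed from the livers of male C57BL/6J mice aged 10 to 12 weeks. The livers were undamaged (PHx 0 h) or were sampled 48, 72 or 96 hours past partial hepatectomy (PHx), in which a surgeon removes lobes of the organ. The mice were fed a normal diet at will in equal periods of light and dark. A single hepatocyte preparation gave the 0 h library and another, of 1 mouse, the 48 h library, and the sources used here do not say whether animals were pooled at 72 and 96 h. They do not give the time of day of surgery or of collection either, so library, surgery and time of day cannot be told apart in any comparison that follows. There were no replicates, so no test was made, and every interval covers counting error only.

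The clock is a transcriptional feedback loop. ARNTL (BMAL1) and CLOCK pair and bind E-boxes in the Per, Cry, Nr1d and Dbp genes, and PER and CRY proteins then inhibit the pair, while the receptors NR1D1 and NR1D2 (REV-ERB) repress Arntl. In the liver the loop imposes a daily rhythm on bile acid, lipid and sugar metabolism and on entry into mitosis, and the E-box genes are open and bound by the pair mainly during the day, the rest phase of mice.

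The E-box is the sequence that the ARNTL and CLOCK pair binds. The letters CACGTG, which read the same on both strands, were searched in the 0 h promoter peaks, that is, peaks within 1000 bp of a transcript start. The promoter peak of Per1 (7207 bp) held 6, and 0.703% of the 711 promoter peaks of like length held as many. Those of Nr1d1 (15493 bp) and Dbp (16044 bp) held 6 each, as did 9.22% of 282 and 11.4% of 281 peaks of like length. That of Nr1d2 held 3, and 29.6% of peaks of like length held as many or more. Those of Cry1, Rgs16 and Per2 held 1 each, and 47.8%, 75.9% and 88.2% of peaks of like length held at least 1. Those of Arntl, Clock and Cry2 held 0, where 39.2%, 49.0% and 74.8% of peaks of like length held at least 1. The sites of Per1, which held the most for its length of the 10 genes, are shown with those in or just upstream of Nr1d1, Nr1d2, Dbp, Cry1 and Rgs16. Each is 30 bases of GRCm38 on the strand of the gene, with the E-box in capitals.
Per1, upstream, chr11:69094871-69094900: tgagccagcctgCACGTGttccctacagct
Per1, upstream, chr11:69095055-69095084: cgcccccgccctCACGTGgctctatcacta
Per1, intron, chr11:69097662-69097691: gaaagctttagcCACGTGacagtgaggggc
Per1, intron, chr11:69098408-69098437: accccttaacgaCACGTGggccctcaattg
Per1, intron, chr11:69098771-69098800: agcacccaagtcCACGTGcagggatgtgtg
Per1, intron, chr11:69100951-69100980: gatgctgctgacCACGTGgccctccctcac
Dbp, intron, chr7:45707700-45707729: acattccctcgcCACGTGagtccgccttcc
Dbp, intron, chr7:45707813-45707842: agctgtaggccaCACGTGatgcggccctga
Nr1d1, upstream, chr11:98775683-98775712: cagttctccaatCACGTGaagctctcacgt
Nr1d1, intron, chr11:98773862-98773891: tcgttggggtgcCACGTGcgaggggcacac
Nr1d1, intron, chr11:98773847-98773876: gtgcgaggggcaCACGTGgagtggggacgt
Nr1d1, intron, chr11:98774142-98774171: cagagccgggccCACGTGctgcatttgttt
Nr1d1, intron, chr11:98773026-98773055: tgtcacctcacaCACGTGtctgaggatcct
Nr1d2, intron, chr14:18238661-18238690: tgccgcactggcCACGTGcacggtgtgttt
Nr1d2, intron, chr14:18238558-18238587: ggcgggcggagaCACGTGaggccgcggggc
Nr1d2, intron, chr14:18238513-18238542: gggccggaggaaCACGTGggggcggtgccg
Cry1, upstream, chr10:85185097-85185126: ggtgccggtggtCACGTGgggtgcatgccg
Rgs16, intron, chr1:153741703-153741732: gtctgtgaaaggCACGTGtgtgctcatgtg
The other 4 sites in the Dbp peak lay in coding exons of Sphk2, the gene that follows Dbp, and 1 of the 6 in the Nr1d1 peak lay in an intron of Thra.

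In RefSeq promoters (GRCm38.p6, 250 bases before to 50 after a start), 9 of the 10 genes had entries, 13 in all. CACGTG was in 2 of the 13 entries, those of Per1 and Cry1, against 7.15% of all 32851 promoters. AGGTCA, the core bound by REV-ERB receptors, was in 4 entries, 1 each of Arntl, Clock, Per1 and Nr1d2, against 16.3% of all promoters. TTATGTAA, a D-box as bound by DBP, was in 0 of the 13, against 0.938% of all promoters. Both strands were searched for each, and no match overlapped another. The Per1 promoter is shown because it holds both motifs, and the Arntl promoter because REV-ERB represses that gene. Capitals mark the E-box and the receptor core, which in Per1 is read from the minus strand and so stands as TGACCT.
Per1, chr11:69098699-69098998, plus strand: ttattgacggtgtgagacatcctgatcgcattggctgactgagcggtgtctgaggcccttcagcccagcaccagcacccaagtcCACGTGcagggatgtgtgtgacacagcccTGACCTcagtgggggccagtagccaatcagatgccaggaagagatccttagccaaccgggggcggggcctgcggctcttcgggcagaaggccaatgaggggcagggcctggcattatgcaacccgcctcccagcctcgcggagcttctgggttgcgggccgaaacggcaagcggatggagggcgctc
Arntl, chr7:113207261-113207560, plus strand: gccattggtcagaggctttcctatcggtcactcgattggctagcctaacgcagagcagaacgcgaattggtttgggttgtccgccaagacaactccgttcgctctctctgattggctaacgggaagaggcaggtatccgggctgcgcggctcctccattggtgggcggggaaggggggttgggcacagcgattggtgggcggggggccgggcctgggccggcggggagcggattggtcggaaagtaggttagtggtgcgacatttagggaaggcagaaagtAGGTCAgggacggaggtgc
The E-box of this Per1 promoter starts 166 bases before the RefSeq start and is the intronic site chr11:69098771-69098800 of the longer transcript above.

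The libraries differed in depth and in the length that their peaks covered. Barcodes with at least 1000 counts, called nuclei, numbered 3977, 3892, 4256 and 3224 at 0, 48, 72 and 96 h and held 136582768, 62000846, 24724883 and 14935507 counts, with medians of 26005, 11629, 4841 and 3681.5 per nucleus. Peaks, called by the authors in each library alone, covered 153.6, 179.0, 141.2 and 60.9 Mb. Between 681 and 882 barcode sequences recurred in any pair of libraries, but only 27 to 60 with at least 1000 counts in both. At 0 h, 877 nuclei carried a sequence also listed in another library, and they held 49.3% of the counts. The labelled cell type was checked on 10 hepatocyte markers, in CPM (counts in peaks over the library total, scaled to 1000000). All were open in every library, at summed levels of 3998, 4428, 2819 and 4001 CPM. Of the 10, 5, 2 and 4 were above their 0 h level at 48, 72 and 96 h. From 0 to 72 h Alb went from 553.0 to 631.7 CPM and Fgb from 672.8 to 191.8 CPM. Apoa1 and Apoc3 had equal values at 0, 48 and 72 h, and both enter the sums. Among the 10 Kupffer and myeloid cell markers, 7 were listed at 0 at 0 h and at 96 h. Clec4f, Adgre1 and Lyz2 were among them but had counts at 48 and 72 h. The sums of the 10 were 125, 174, 160 and 52.9 CPM. Cd68 gave 100.5, 102.8, 68.1 and 8.90 CPM of these, and Csf1r 21.2, 58.4, 72.4 and 38.1 CPM. The sums of endothelial markers were 407, 415, 492 and 238 CPM, and those of stellate markers 86.6, 128, 178 and 150 CPM. Those of the 6 cholangiocyte markers were 46.6, 47.5, 70.1 and 68.3 CPM. At 48, 72 and 96 h, 4, 6 and 3 of these were above their 0 h level. Krt19 was at 0 except at 72 h, and Epcam was at 5.80, 11.1, 16.2 and 17.5 CPM.

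The values of each clock gene are counts in the peaks that touch its window (gene body and 2 kb upstream), in CPM, and separately those in its promoter peaks. Of the 10 genes, 7 were most accessible at 0 h, namely Per1, Per2, Cry2, Nr1d1, Nr1d2, Dbp and Rgs16. Over all 16862 genes with a mean of at least 50 counts, a minimum all 10 clock genes met, 28.3% were highest at 0 h. In 5 of these 7 (Per1, Per2, Nr1d1, Nr1d2 and Dbp) the window was lowest at 72 h, an order held by 13.5% of all genes. In promoters 3 (Per2, Nr1d2 and Dbp) held that order, against 14.9% of 15025 genes. The promoters of Per1, Cry2, Nr1d1 and Rgs16 were lowest at 96 h. Arntl, Clock and Cry1 were not highest at 0 h.

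**Figure D1:**
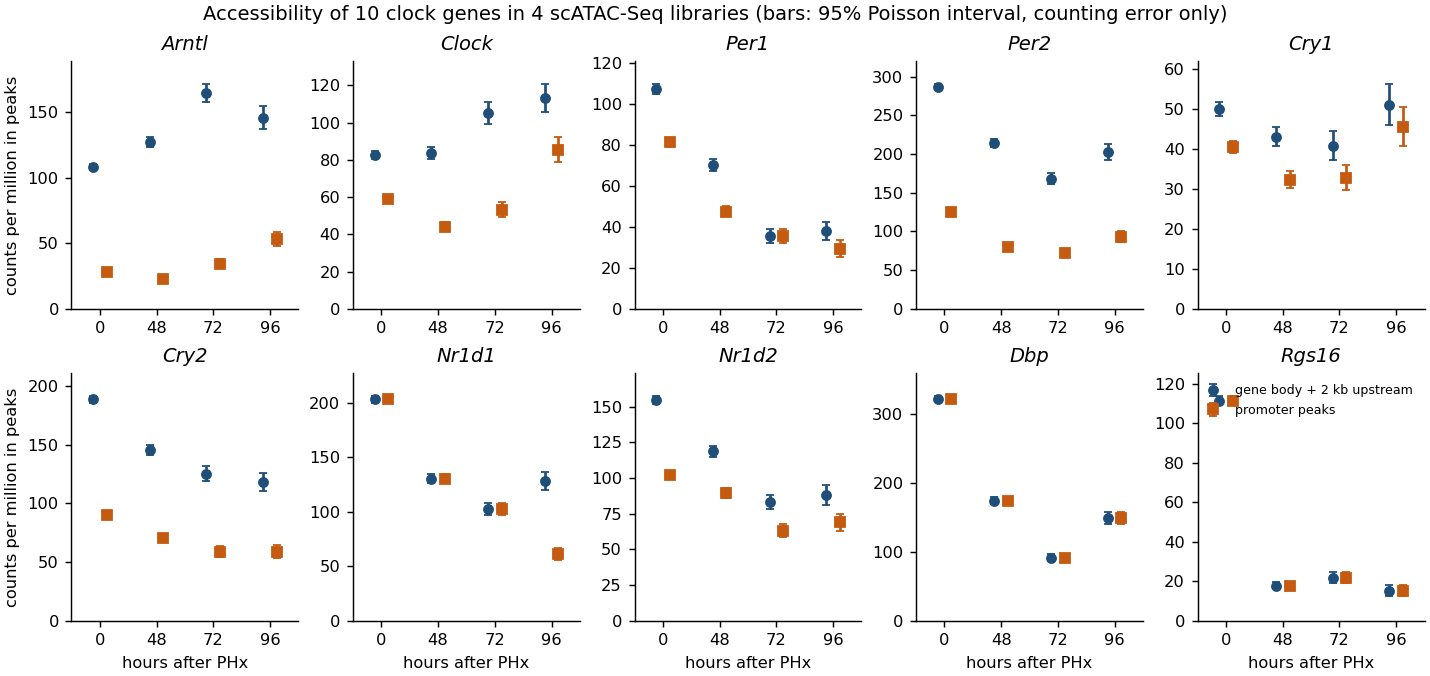
CPM in peaks (vertical axes, each from 0) of the 10 clock genes in the 4 libraries, by hours since PHx (horizontal axes), for the gene body with 2 kb upstream (circles) and the promoter peaks (squares), with exact 95% Poisson intervals of counting error. Rgs16 stood at 111.6 CPM at 0 h and between 15.1 and 21.7 CPM afterwards, and Arntl was lowest at 0 h in its window.

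Among the activators, Arntl (chr7:113207465-113314126, plus strand), the partner without which the loop stops, had a window level of 108.2 (105.8 to 110.7), 126.9 (123.0 to 130.9), 164.3 (157.3 to 171.6) and 145.8 (137.2 to 154.7) CPM at 0, 48, 72 and 96 h. None of the 4 intervals overlapped another, so every pair of libraries differed beyond counting error, with 0 h lowest and 72 h highest. The log2 ratios to 0 h were 0.23, 0.60 and 0.43. Its promoter peak (2599 bp long at 0 h) was at 28.1, 22.4, 34.3 and 53.0 CPM. The promoter was thus lowest at 48 h and highest at 96 h, another order than that of the window. A peak in the gene, chr7:113259881-113262344 at 0 h, held more counts than the promoter at 0 h, with 32.1, 38.8, 41.1 and 44.4 CPM. It was lowest at 0 h and highest at 96 h as a whole, but the peaks called there were 2464, 4748, 3339 and 1864 bp long, that of 48 h taking in a separate 0 h peak. Per kb they were at 13.0, 8.17, 12.3 and 23.8 CPM, lowest at 48 h. Clock (chr5:76209868-76304792, minus strand), a histone acetyltransferase and the other activator, had 82.5 (80.4 to 84.7), 83.6 (80.4 to 86.9), 105.0 (99.4 to 110.9) and 113.0 (105.5 to 120.9) CPM in its window. The levels of 0 and 48 h did not differ beyond counting error, nor did those of 72 and 96 h, and the later pair was higher. Its promoter was at 59.2, 44.1, 53.1 and 85.4 CPM, again lowest at 48 h and highest at 96 h.

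Among the repressors, Per1 (chr11:69095217-69109960, plus strand), a period protein that light and feeding signals also induce, had 107.6 (105.1 to 110.1), 70.3 (67.3 to 73.3), 35.4 (32.2 to 38.9) and 37.8 (33.5 to 42.5) CPM. The 0 h library was highest, 48 h lay between, and the levels of 72 and 96 h did not differ beyond counting error. The log2 ratios to 0 h were -0.61, -1.59 and -1.50. The promoter peaks gave 81.4, 47.5, 35.4 and 29.3 CPM, at log2 ratios of -0.77, -1.19 and -1.46. At 0 h the gene carried 7 peaks covering 13475 bp, and at 96 h 4 peaks covering 3231 bp, where the promoter peak of the earlier libraries was called as separate pieces. Per kb of covered peak Per1 was at 7.98, 5.83, 5.91 and 11.7 CPM, so at 96 h it was the highest of the 4. Its log2 ratio per kb at 96 h, 0.55, lay at percentile 10.7 of all genes, whose median was 1.23. Peaks shared with Vamp2, the gene upstream, held 8.07% and 9.37% of the counts of the window at 0 and 48 h and none later.

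Per2 (chr1:91415982-91459324, minus strand), the other period gene of the group, had 287.0 (283.0 to 291.0), 214.1 (208.9 to 219.3), 168.2 (161.0 to 175.6) and 202.3 (192.2 to 212.7) CPM. It was highest at 0 h and lowest at 72 h, with 96 h nearer to 48 h than to 0 h. The log2 ratios to 0 h were -0.42, -0.77 and -0.50. Its promoter gave 124.5, 79.3, 72.0 and 93.0 CPM, also highest at 0 h and lowest at 72 h, but with 96 h above 48 h. The promoter peaks of Per2 covered 12764, 7731, 7306 and 6587 bp, and per kb the promoter was lowest at 0 h, at 9.75, 10.3, 9.85 and 14.1 CPM. The window was at 10.4, 7.77, 8.16 and 13.4 CPM per kb, lowest at 48 h and highest at 96 h. Its log2 ratio per kb at 96 h, 0.36, lay at percentile 7.85 of all genes. Cry2 (chr2:92403646-92434043, minus strand), a cryptochrome, had 188.8, 145.3, 125.5 and 118.0 CPM. It was highest at 0 h, and the 72 and 96 h levels did not differ beyond counting error. Relative to covered length Cry2 was at 6.67, 6.49, 6.59 and 14.7 CPM per kb, with 96 h highest. Between 12.7% and 21.2% of its counts at 0, 48 and 72 h lay in peaks that also cover Mapk8ip1. Cry1 (chr10:85131700-85185064, minus strand), the cryptochrome that peaks latest in the cycle, had 50.1 (48.4 to 51.8), 43.1 (40.8 to 45.5), 40.8 (37.3 to 44.5) and 51.0 CPM. The levels of 0 and 96 h did not differ beyond counting error, nor did those of 48 and 72 h, which were lower. Of the 10 genes Cry1 had the narrowest range over the libraries, with a promoter log2 range of 0.49.

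Among the REV-ERB receptors, which repress Arntl, Nr1d1 (chr11:98767932-98775333, minus strand) had 203.5 (200.1 to 206.9), 130.4 (126.5 to 134.5), 102.4 (96.8 to 108.2) and 128.0 (120.0 to 136.3) CPM. It was highest at 0 h and lowest at 72 h, and the 48 and 96 h levels did not differ beyond counting error. The log2 ratios to 0 h were -0.64, -0.99 and -0.67. Until 72 h these counts lay in 1 peak, chr11:98762651-98778143 at 0 h, which also covers part of Thra, a thyroid hormone receptor gene that overlaps the end of Nr1d1. At 96 h the peak was called as 2 pieces and 52.3% of the counts lay in the piece over Thra. The promoter piece alone then had 61.1 CPM, so the promoter log2 ratio of -1.73 at 96 h compares 3876 bp with 15493 bp. Per kb of promoter peak that ratio was 0.26, at percentile 9.46 of all genes, whose median was 1.03. Nr1d2 (chr14:18204054-18239127, minus strand), the second receptor, had 154.7 (151.8 to 157.7), 118.7 (114.9 to 122.6), 82.9 (77.9 to 88.1) and 87.8 (81.2 to 94.8) CPM. The 72 and 96 h levels did not differ beyond counting error, and both lay below 48 h and 0 h. Its covered length was 28059, 19866, 11561 and 3796 bp, and per kb of covered peak the order turned, to 5.51, 5.97, 7.17 and 23.1 CPM.

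Among the outputs, Dbp (chr7:45705088-45710203, plus strand), a D-box transcription factor that drives daily expression of many liver genes, had the highest level of the 10 genes at 0 h per kb of peak. The window had 321.9 (317.6 to 326.1), 173.9 (169.3 to 178.6), 91.5 (86.3 to 97.0) and 148.6 (140.0 to 157.6) CPM. None of the 4 intervals overlapped another, with 0 h highest, 72 h lowest and 96 h between 72 and 48 h. The log2 ratios to 0 h were -0.89, -1.81 and -1.11, at percentiles 2.46, 1.75 and 10.6 of all genes. In each library the counts lay in 1 peak, chr7:45703475-45719518 at 0 h, 16044, 15734, 11804 and 11523 bp long. That peak also covers Sphk2, Car11 and Rpl18, so all of these counts are shared with its neighbours. Per kb of covered peak Dbp was at 20.1, 11.1, 7.75 and 12.9 CPM, so 0 h was highest and 72 h lowest per kb as well. With counts binarised, that is, each peak of a nucleus scored only as open or not, the log2 ratio of Dbp turned to 0.0790 at 72 h and 0.64 at 96 h. Nuclei with any count at Dbp held 13.5, 4.83, 2.50 and 2.74 counts there on average.

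Rgs16 (chr1:153740349-153745468, plus strand), a regulator of G protein signalling whose liver expression follows the daily feeding rhythm, had the widest range. The undamaged liver gave 111.6 CPM (109.1 to 114.1), and the libraries of 48, 72 and 96 h gave 17.8 CPM (16.4 to 19.4), 21.7 CPM (19.2 to 24.5) and 15.1 CPM (12.4 to 18.1). The 0 h library stood apart, and the levels of 48 and 96 h did not differ beyond counting error. The log2 ratios to 0 h were -2.61, -2.33 and -2.85, at percentiles 0.228, 0.916 and 2.04 of all genes, and the lowest level was 13.5% of the highest. Its peak at 0 h, chr1:153738926-153747733, ran from 1423 bp before the start to 7384 bp after it and held no other protein-coding gene. The peaks of 48 and 72 h ended 2691 and 2867 bp after the start and that of 96 h at 421 bp, short of the intronic E-box at 1366 bp. Per kb of covered peak Rgs16 was at 12.7, 3.90, 5.34 and 12.1 CPM. The level at 48 and 72 h was thus lower per kb as well. At 96 h it was near that of 0 h, at a log2 ratio of -0.07 and percentile 4.77 of all genes, whose median per kb was 1.23.

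**Figure D2:**
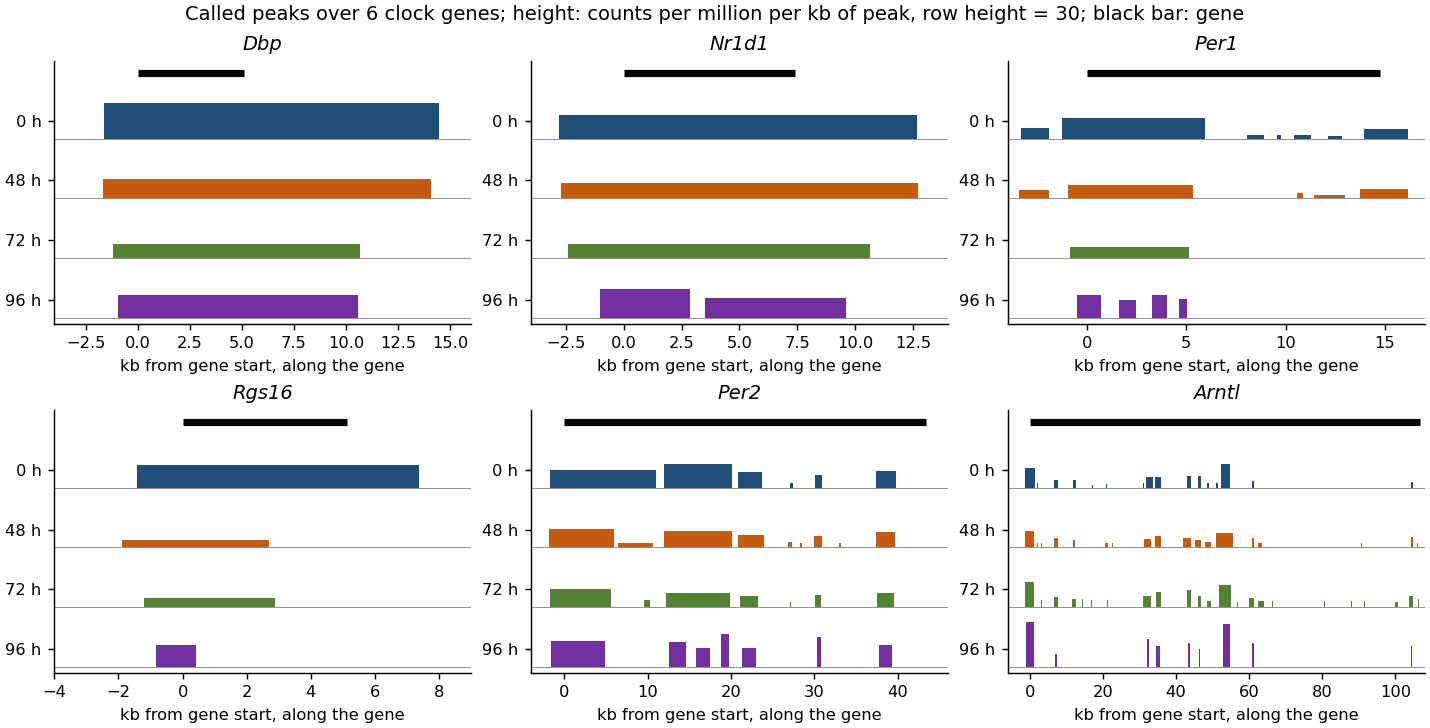
Peaks called in each library (rows, 0 to 96 h after PHx) over 6 clock genes, by distance from the gene start in kb along the gene (horizontal axes), with the height in CPM per kb of peak (a full row is 30) and the gene as a black bar. The single Dbp peak of 16044 bp at 0 h was 11523 bp long at 96 h, and the Rgs16 peak went from 8808 to 1249 bp.

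Counts per nucleus depend on depth, so each nucleus was also thinned at random to 1000 counts, which left out none. The share of nuclei with at least 1 count at Dbp was then 24.5% (exact 95% binomial interval 23.2 to 25.9), 14.6% (13.5 to 15.8), 8.04% (7.24 to 8.89) and 11.1% (10.0 to 12.2) at 0, 48, 72 and 96 h. Without thinning the shares were 82.1%, 57.3%, 21.3% and 25.2%. At Rgs16 the thinned shares were 9.03% (8.15 to 9.96), 1.46% (1.11 to 1.89), 1.86% (1.47 to 2.31) and 1.21% (0.862 to 1.65), with 56.5%, 11.6%, 5.99% and 3.44% unthinned. At Per1 they were 9.53%, 6.63%, 3.05% and 3.07%. In these 3 genes the thinned shares kept the order of their CPM. With so few counts per thinned nucleus the share largely restates CPM, and it uses the same peaks. It is therefore no separate evidence, and covered length enters it too. At Arntl the thinned shares were 10.2% (9.26 to 11.2), 10.7% (9.73 to 11.7), 12.9% and 11.3% (10.2 to 12.4), so the intervals of 48 and 96 h overlapped that of 0 h and that of 72 h did not, and unthinned they ran the other way, from 64.7% at 0 h to 26.4% at 96 h. The thinned shares of Clock were 7.29%, 7.04%, 8.46% and 8.81%, and each later interval overlapped that of 0 h.

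The group was then set beside all genes, with at least 2-fold counted as a change of size. At 48 h 1 of the 10 windows (Rgs16) was at least 2-fold lower than at 0 h, against 1.94% of all genes. At 72 h there were 3 (Per1, Dbp and Rgs16), against 6.11%, and at 96 h the same 3, against 11.9%. No clock gene was 2-fold higher in the window, against 7.96%, 13.3% and 6.07% of all genes. The median log2 ratio of the 10 was -0.40, -0.83 and -0.67, and that of all genes -0.01, 0.02 and 0.05. In promoters 1, 3 and 4 of the 10 were 2-fold lower, Nr1d1 being added at 96 h, against 2.57%, 7.87% and 12.6% of 15025 genes, and 0 were higher, against 9.42%, 12.4% and 7.67%. The promoter medians were -0.53, -0.74 and -0.59 against -0.14, -0.06 and 0.14. With binarised counts the differences from all genes were small or turned, with window medians of -0.06, -0.22 and 0.11 against -0.04, -0.06 and -0.02, and promoter medians of -0.06, 0.04 and 0.24 against -0.13, -0.09 and 0.12. Per kb the window medians were -0.42, -0.20 and 0.75 against -0.19, 0.19 and 1.23, and the promoter medians -0.34, -0.20 and 0.53 against -0.20, 0.19 and 1.03, so the group lay below all genes there at each time. The 3 comparisons share the 0 h library, so a high value there enters all of them. The hepatocyte marker list moved as well, with median log2 ratios of 0.13, -0.99 and -0.22, and its part in the change of the clock genes was not tested. Limited to nuclei with more hepatocyte than other marker counts, the median of the clock genes was -0.40, -0.84 and -0.68. Without the barcode sequences found in another library it was -0.41, -0.84 and -0.67, with 1, 3 and 3 windows 2-fold lower.

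**Figure D3:**
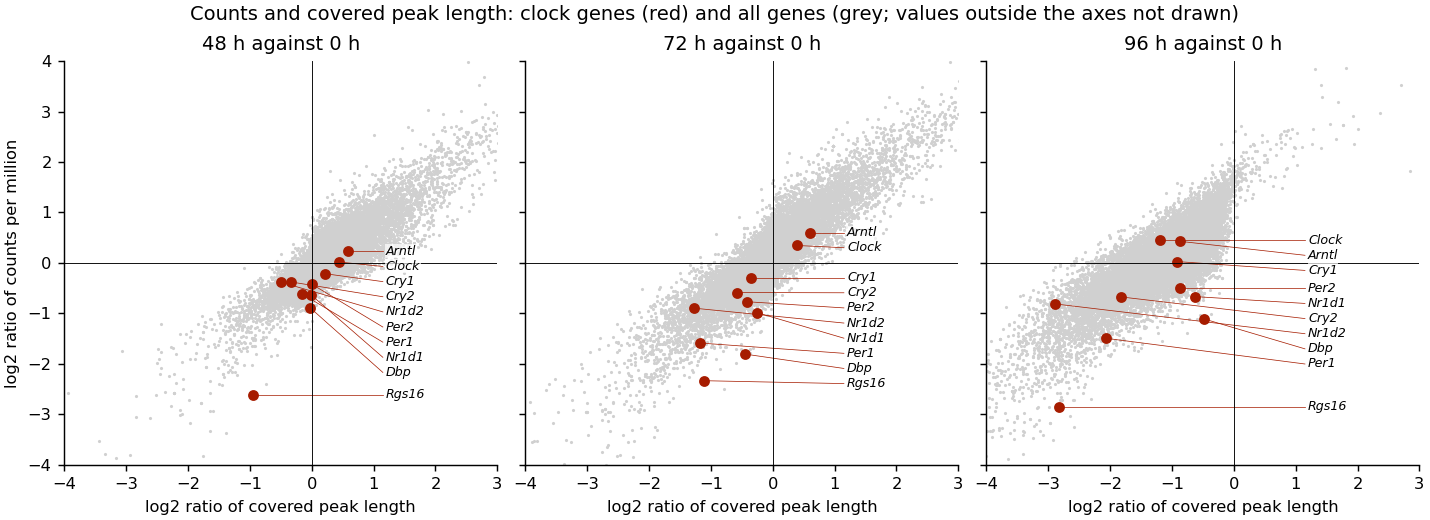
Log2 ratio to 0 h of CPM (vertical axis) against that of covered peak length (horizontal axis) in the window of each gene at 48, 72 and 96 h, with the 10 clock genes in red and named and all genes in grey. Dbp stood at -1.81 at 72 h with a length ratio of -0.44, and Rgs16 at -2.85 at 96 h with a length ratio of -2.82.

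Since each library has its own peaks, a window can gain or lose counts with its covered length. The log2 ratio of covered length was -0.03, -0.44 and -0.48 for Dbp, -0.95, -1.11 and -2.82 for Rgs16, -0.16, -1.17 and -2.06 for Per1, and 0.59, 0.60 and -0.87 for Arntl at 48, 72 and 96 h. Per kb of covered peak the median log2 ratio of all genes was -0.19, 0.19 and 1.23, so levels per kb at 96 h were higher in most genes. Arntl was at 7.23, 5.62, 7.26 and 17.9 CPM per kb and Clock at 7.70, 5.76, 7.46 and 24.1. The comparison was therefore repeated in regions with 1 peak in each of both libraries whose lengths differed by less than 25% of the shorter. At 48 h against 0 h, 9 of the 10 genes had such peaks, as had 13806 genes with a median of -0.13. Dbp was at -0.89 (-0.93 to -0.85), lower than all but 0.420% of these genes, of which 0.311% were 2-fold lower. Nr1d1 was at -0.64 (-0.69 to -0.59) and Per1 at -0.62 (-0.70 to -0.56), at percentiles 2.41 and 2.73. Per2, Cry2 and Cry1 were at -0.41, -0.35 and -0.31, and Clock at -0.24. Nr1d2 lay at the median, at -0.13, and Arntl was at -0.06 (-0.15 to 0.03), at percentile 59.6. The higher window level of Arntl at 48 h was thus not seen in peaks of like length, and 7 of the 9 genes lay below the median.

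At 72 h against 0 h, 6 genes had peaks of like length, and the median of 11864 genes was 0.13. Per1 was at -1.19 (-1.34 to -1.06) and Per2 at -0.78 (-0.89 to -0.69), at percentiles 0.426 and 1.32, and 0.632% of all genes were 2-fold lower. Cry2 was at -0.50 and Cry1 at -0.29, at percentiles 5.84 and 15.2. Clock was at -0.03 and Arntl at 0.32 (0.22 to 0.43), at percentile 68.1. Between 48 and 72 h, a comparison without the 0 h library, Per1, Per2 and Cry2 were at -0.42 (-0.58 to -0.27), -0.31 (-0.42 to -0.20) and -0.29 (-0.39 to -0.20), at percentiles 1.54, 3.03 and 3.23 of 12467 genes, whose median was 0.21. Cry1 was at 0.02 (-0.14 to 0.18), at percentile 22.1. Arntl was at 0.45 (0.33 to 0.58) and Clock at 0.31 (0.20 to 0.43), at percentiles 83.2 and 65.9. In peaks of like length the period genes and Cry2 were thus lower at 72 h than at 48 h, Arntl lay above the median of all genes, and the interval of Clock held that median. Some difference in length remained. At 72 and 48 h the peaks covered 5958 and 6276 bp for Per1, 9670 and 10398 bp for Per2, and 12783 and 13737 bp for Cry2. Those of Clock covered 6891 and 7261 bp, and those of Arntl 7273 and 7249 bp. At 96 h Arntl alone had such peaks against 0 h, at 0.90, where the median of 3046 genes was 0.97. Per kb of covered peak, 0 of the 10 windows were 2-fold lower at 96 h, against 4.43% of all genes, and 4 (Arntl, Clock, Cry2 and Nr1d2) were 2-fold higher, against 68.3%.

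**Figure D4:**
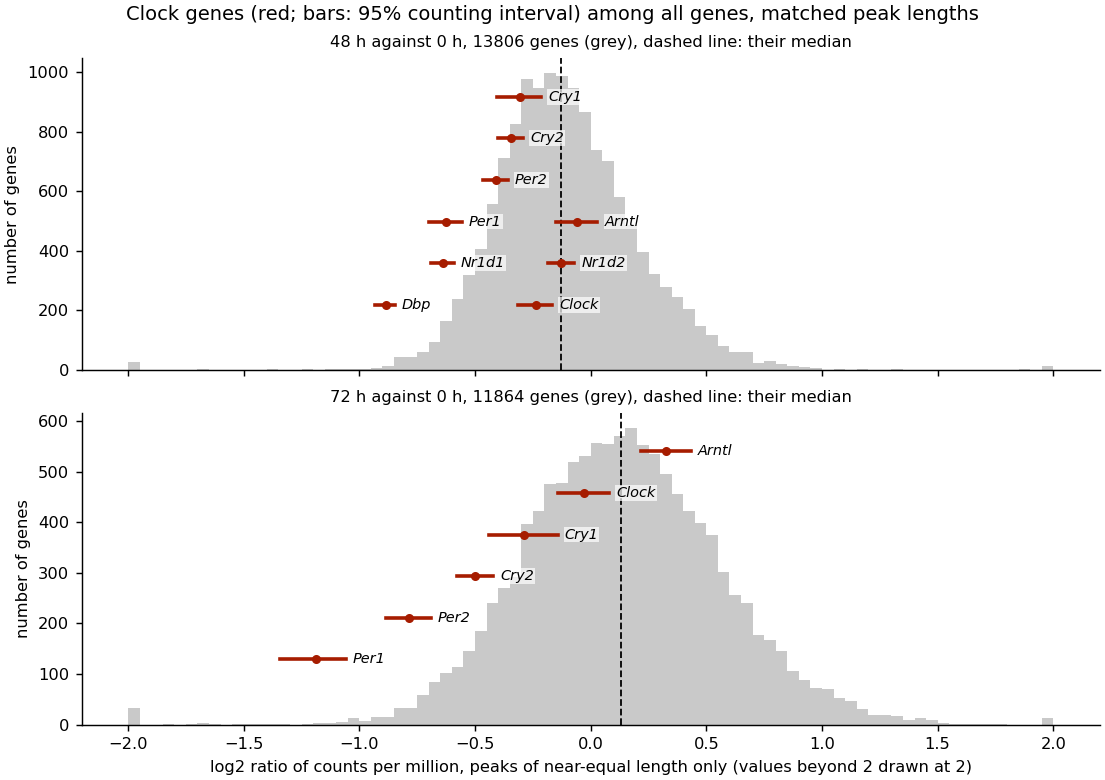
Number of genes (vertical axes) by log2 ratio of CPM to 0 h in peaks of near-equal length (horizontal axis) at 48 h (top) and 72 h (bottom), with the clock genes as red points and 95% counting intervals. Dbp at -0.89 and Per1 at -1.19 lay in the lower tails, and Arntl at 0.32 above the median of 0.13.

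The other genes of the pathway were grouped by the phase in which textbooks place them. The day phase list, of 12 genes driven by E-boxes or D-boxes, holds 5 of the clock genes above with Per3, Tef, Hlf, Ciart, Bhlhe41, Usp2 and Wee1. Its median window log2 ratio was -0.40, -0.79 and -0.51 at 48, 72 and 96 h, and 11 of the 12 lay below the median of all genes at each time. The 7 that are not among the 10 genes had -0.25, -0.32 and -0.36, with 6 of 7 below that median at each time, and the exception was Per3 at 0.01, 0.24 and 0.34. In promoters 7, 4 and 6 of these 7 lay below the median of all genes. Tef, a D-box factor related to Dbp, had 163.3, 64.5, 53.5 and 63.1 CPM, highest at 0 h, as its covered length went from 25999 to 11208, 7110 and 4051 bp, and per kb it was at 6.28, 5.75, 7.53 and 15.6 CPM. Wee1, a kinase that delays mitosis, had 164.4, 137.7, 102.2 and 115.4 CPM, highest at 0 h and lowest at 72 h. Its promoter was at log2 ratios of -0.40, -1.12 and -0.66, over 16203, 15861, 4906 and 4177 bp, and per kb it was lowest at 48 h, at 6.97 CPM, against 13.7 CPM at 72 h.

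The night phase list, of 5 genes driven through the elements at which REV-ERB represses, holds Arntl, Clock and Cry1 with Npas2 and Nfil3. Its median was 0.02, 0.35 and 0.45, against -0.01, 0.02 and 0.05 of all genes, and 2, 2 and 1 of the 5 lay below the median of all genes. In promoters the medians were -0.32, -0.02 and 0.53, against -0.42, -0.74 and -0.58 for the day phase list and -0.14, -0.06 and 0.14 for all genes. At 48, 72 and 96 h, 4, 2 and 1 of the 5 night phase promoters lay below the median of all genes. Of the 12 day phase promoters, 12, 9 and 11 did. Npas2, which can stand in for CLOCK, had 70.6, 82.0, 94.8 and 112.0 CPM. It was lowest at 0 h and highest at 96 h. Nfil3, a repressor at D-boxes, had 197.3, 175.2, 194.3 and 365.0 CPM, so 96 h stood apart, while its promoter went from 194.3 to 94.1 CPM as the peak of 21847 bp at 72 h gave way to pieces of which 3661 bp lay at the promoter. In peaks of like length the difference between the lists was smaller, with medians of -0.37 and -0.17 at 48 h, against -0.13 of all genes. At 72 h they were -0.15 for the 7 day phase genes and -0.02 for the 5 night phase genes with such peaks, against 0.13 of all genes. Dbp, Nr1d1, Nr1d2, Tef and Wee1 had no such peaks then, and their whole windows were at -1.81, -0.99, -0.90, -1.60 and -0.68. The day phase medians of the 2 measures at 72 h are thus over different genes. At 48 and 72 h the night phase median lay below that of all genes in peaks of like length, with 3 of the 5 genes below. In whole windows it lay above, and at 48 h both gaps were small. At 96 h 2 night phase genes had such peaks, with a median of 1.07 against 0.97 of all genes.

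**Figure D5:**
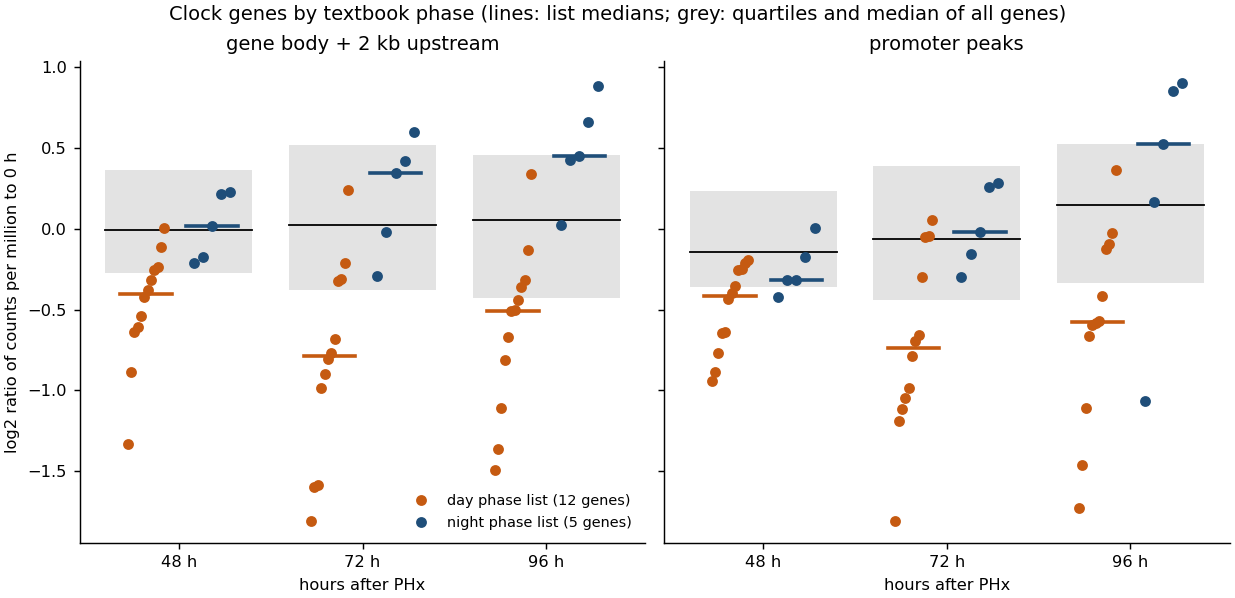
Log2 ratio to 0 h of CPM (vertical axis) for the 12 day phase and 5 night phase genes at 48, 72 and 96 h, in the window (left) and the promoter (right), with list medians as coloured lines and the median and quartiles of all genes in black and grey. In the window the day phase medians were -0.40, -0.79 and -0.51 and the night phase medians 0.02, 0.35 and 0.45.

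Of 14 other core clock genes, 0 were 2-fold higher in the window at any time and 1, 1 and 2 were 2-fold lower at 48, 72 and 96 h, against the background shares given above. Their median was -0.16, -0.27 and -0.20. Of 12 liver outputs of the clock, 2, 1 and 1 were 2-fold higher and 0, 1 and 2 lower in the window, against the window shares above. In the promoter 2, 0 and 0 were 2-fold higher, against 9.42%, 12.4% and 7.67% of all genes, and 2, 7 and 4 lower, against 2.57%, 7.87% and 12.6%. The 7 lower at 72 h had shorter promoter peaks there, and per kb 5 of them were higher than at 0 h and 0 were 2-fold lower. Cyp7a1, the rate-limiting enzyme of bile acid synthesis and a known target of DBP, was at 12.4 CPM at 0 h and 202.4, 143.4 and 187.1 CPM later. Its covered length went from 3224 bp to 18582, 17227 and 11352 bp. The promoter alone was at 7.47, 202.4, 7.93 and 11.6 CPM, so only 48 h, where 1 peak of 18582 bp reached the promoter, stood apart there. Ppara, a fatty acid receptor, was at 702.9, 451.7, 287.6 and 269.0 CPM, highest at 0 h, while its covered length went from 83229 to 79293, 48157 and 19046 bp. Per kb it was at 8.44, 5.70, 5.97 and 14.1 CPM, highest at 96 h. Lpin1, a phosphatidate phosphatase, was at 242.1, 128.5, 122.7 and 81.7 CPM over 55414, 29064, 23079 and 6194 bp. Per kb it was lowest at 0 h, at 4.37, 4.42, 5.32 and 13.2 CPM. Elovl3, a fatty acid elongase with a strong daily rhythm in male liver, had a promoter level of 47.7 CPM at 0 h and 9.61, 8.33 and 8.17 CPM later. Its promoter peaks covered 7202, 2070, 1435 and 541 bp, and its window, with the pieces of the 0 h peak that no longer touched the promoter, was at 47.7, 35.0, 38.5 and 58.2 CPM, highest at 96 h.

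The genes most like Rgs16, the clock gene with the widest range, were sought by the distance between the 3 promoter log2 ratios among 15024 genes over the 4 libraries. The nearest was Anks4b, at 183.3, 32.9, 34.6 and 25.5 CPM in the 4 libraries and a distance of 0.163. Il1rl1, Slc22a28 and Apol7c followed, at 2.56 to 2.69 CPM at 0 h and with no promoter peak later, so that their ratios are set by the pseudocount. Med28 was the fifth, at 195.0, 30.6, 34.7 and 35.4 CPM and a distance of 0.426.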

How the data were processed

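The authors deposited, for each library, peaks and the whole-number counts of transposase cut sites per peak and barcode, made with Cell Ranger ATAC 1.1.0 on mm10 per the file headers and the submitters' notes. Alignment, duplicate removal and peak calling were done by that tool in each library alone. Between 87.3% and 88.6% of the deposited counts were even, as both ends of a fragment in a peak count, so exact 95% Poisson intervals were computed on counts divided by 2.

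Counts of barcodes with at least 1000 counts were summed over peaks that touch a gene of GENCODE vM21 or the 2000 bp upstream by at least 1 bp, or 1000 bp on either side of a start of a protein-coding transcript, and expressed as CPM, the count over the library total scaled to 1000000. The log2 ratio to 0 h used a pseudocount of 0.5 CPM. All protein-coding genes with a mean of at least 50 counts formed the background. No doublet caller was run. Calculations used Python 3.11.15, numpy 2.4.6, scipy 1.17.1, pandas 2.3.3 and pysam 0.24.0, and the sums and intervals were tested on simulated data.

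Although the rule for the members uses no measured value, they and the lists and comparisons were chosen with earlier results of these data known. Named were all 10 members, from each other list up to 4 genes at least 2-fold changed in the promoter at any time, and the 5 genes nearest to the member with the widest promoter range. Genes of the lists named outside this rule (Npas2, Per3) were chosen after their values were seen. For 1 gene of the lists values are not reported here, and it was left out of the list counts and medians.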

Additional observations from a re-analysis of the deposited data

How the results depend on the processing

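The numbers of clock genes at least 2-fold lower kept to within 1.5 times under another barcode minimum, every barcode, without the deepest 5% of nuclei, hepatocyte-marked nuclei, other scaling (the median of all genes, or counts in shared regions), shared regions alone, equal weights per nucleus, pseudocounts of 0 and 5, the gene body alone and other starts. They did not in regions of near-equal length, where fewer genes have a value: 0 of 9, 1 of 6 and 0 of 1 windows and 0 of 8, 1 of 5 and 0 of 1 promoters at 48, 72 and 96 h, against 0.311%, 0.632% and 0.23% of all windows and 0.199%, 0.542% and 0.287% of all promoters. Rgs16 at each time, Dbp at 72 and 96 h and Per1 at 96 h have no value there. Per kb of covered peak, 0 were lower at 96 h and 4 windows and 2 promoters 2-fold higher, when 68.3% of all windows and 52% of all promoters were. Per1 then reversed to 0.55 in the window and 0.12 in the promoter, and the promoter of Nr1d1 to 0.26. These values lay low, at percentiles 10.7, 8.20 and 9.46 of all genes, whose medians were 1.23 in windows and 1.03 in promoters. With binarised counts, 1 promoter was lower at 72 h and 1 at 96 h, against 5.16% and 9.91% of all promoters, and Dbp reversed to 0.0790 at 72 h and 0.64 at 96 h in window and promoter. The difference of the median of the members from all genes shrank or turned, to 0.04 against -0.09 in promoters at 72 h. The cause was not tested. With at least 50% of the peak inside the promoter window, 3 genes had a value and 0, 0 and 0 were lower. Of 996 values under other settings, 823 stayed, 166 moved and 7 reversed. Leaving out barcode sequences found in another library, and counting each only where it was deepest, were added after seeing the data and kept each of these numbers. No paired analysis was possible because each time point had 1 library.

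Counting error is widest at 96 h: with 225 counts at Rgs16, its level there is known only to between 12.4 and 18.1 CPM. Peaks covered the least length there, and whether depth set that was not tested. Dbp, and Nr1d1 but for its promoter piece at 96 h, share peaks with their neighbours and cannot be given apart from them. The hour of sampling is unknown.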
